A study of Bos taurus with 27 samples.

Results

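Transcripts of 48 histone-modifying and Polycomb genes were examined in bovine blastocysts. The genes were chosen by name for their known roles in chromatin, not by their abundance, but with earlier results of these data known. All 48 were found among the 32637 genes of the count table. Each sample was a pool of RNA from 2 in vitro produced blastocysts that had been graded as expanding or expanded and of excellent or good quality, and there were 27 pools. The oocytes came from abattoir ovaries and were matured in medium to which fluid of preovulatory follicles was added, the follicles being of either greater or lesser maturity, and every pool was fertilized with semen of the same bull. The labels of a pool give its number but not its follicle maturity treatment or its in vitro fertilization replicate. Pools were grouped by these labels alone, so no treatments were compared here, and values are given over the 27 pools as their lowest, median and highest.

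Histone tails carry methyl, acetyl and ubiquitin groups that help set which genes are read. Polycomb repressive complex 2 (PRC2) methylates histone H3 on lysine 27, Polycomb repressive complex 1 (PRC1) places ubiquitin on histone H2A, and both hold developmental genes silent. In the blastocyst these enzymes act while the trophectoderm, which forms the placenta, separates from the inner cell mass that gives the epiblast and hypoblast.

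Total counts were between 10517606 and 44253564 per pool, so that 3 counts, the smallest signal considered here, were equal to 0.0678 to 0.285 CPM (the count of a gene scaled to a total count of 1000000 per pool). The SMART-Seq v4 3′ DE Kit reads the 3′ ends of transcripts. CPM was therefore not divided by transcript length, and a value for a gene depends on how well the end of its transcript is annotated. The tissue label was checked against marker genes. The trophectoderm keratin KRT8 was between 10630 and 26270 CPM, the epiblast factor NANOG between 15.3 and 133 CPM, and the hypoblast factor GATA6 between 19.5 and 300.5 CPM. Other markers were low or absent. The trophectoderm factor CDX2 had a median of 3.62 CPM and the hypoblast factor GATA4 of 0.896 CPM. The epiblast factor FGF4 had no counts in 17 pools, the hypoblast factor SOX17 had none in 14, and TDGF1 was not among the genes counted. Of the markers listed, 10 of 10 for trophectoderm, 7 of 9 for epiblast and 6 of 8 for hypoblast were retained for analysis. Of 8 cumulus and granulosa cell markers 3 were retained for analysis, with a sum over the list of 5.31 to 34.2 CPM. FSHR was the highest of them, with a median of 8.89 CPM and a maximum of 24.6 CPM, whereas FOXL2 had no counts in 26 pools. Of 8 leukocyte markers 7 were retained, and the sum over the list was between 202 and 584 CPM, most of it CD48. CD52 reached 42.3 CPM and TYROBP 16.6 CPM, while LAPTM5, the marker not retained, had no counts in 13 pools. In pools of whole embryos, fewer cells of a type and less RNA per cell cannot be told apart.

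At least 1 CPM in 12 pools, the limit used in the study, was reached by 44 of the 48 genes, and 39 reached 1 CPM in every pool. The other 4, CBX7, KDM6B, KMT2D and CARM1, were counted but not retained. The median of a gene was at least 100 CPM for 5 genes, between 10 and 100 CPM for 25, between 1 and 10 CPM for 13 and below 1 CPM for 5. Over the 44 retained genes the middle value of these medians was 30.6 CPM, beside 14.4 CPM over all 12310 retained genes. The 48 genes together summed to between 1663 CPM in pool 9 and 2720 CPM in pool 13, with a median of 2423 CPM.

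**Figure D1:**
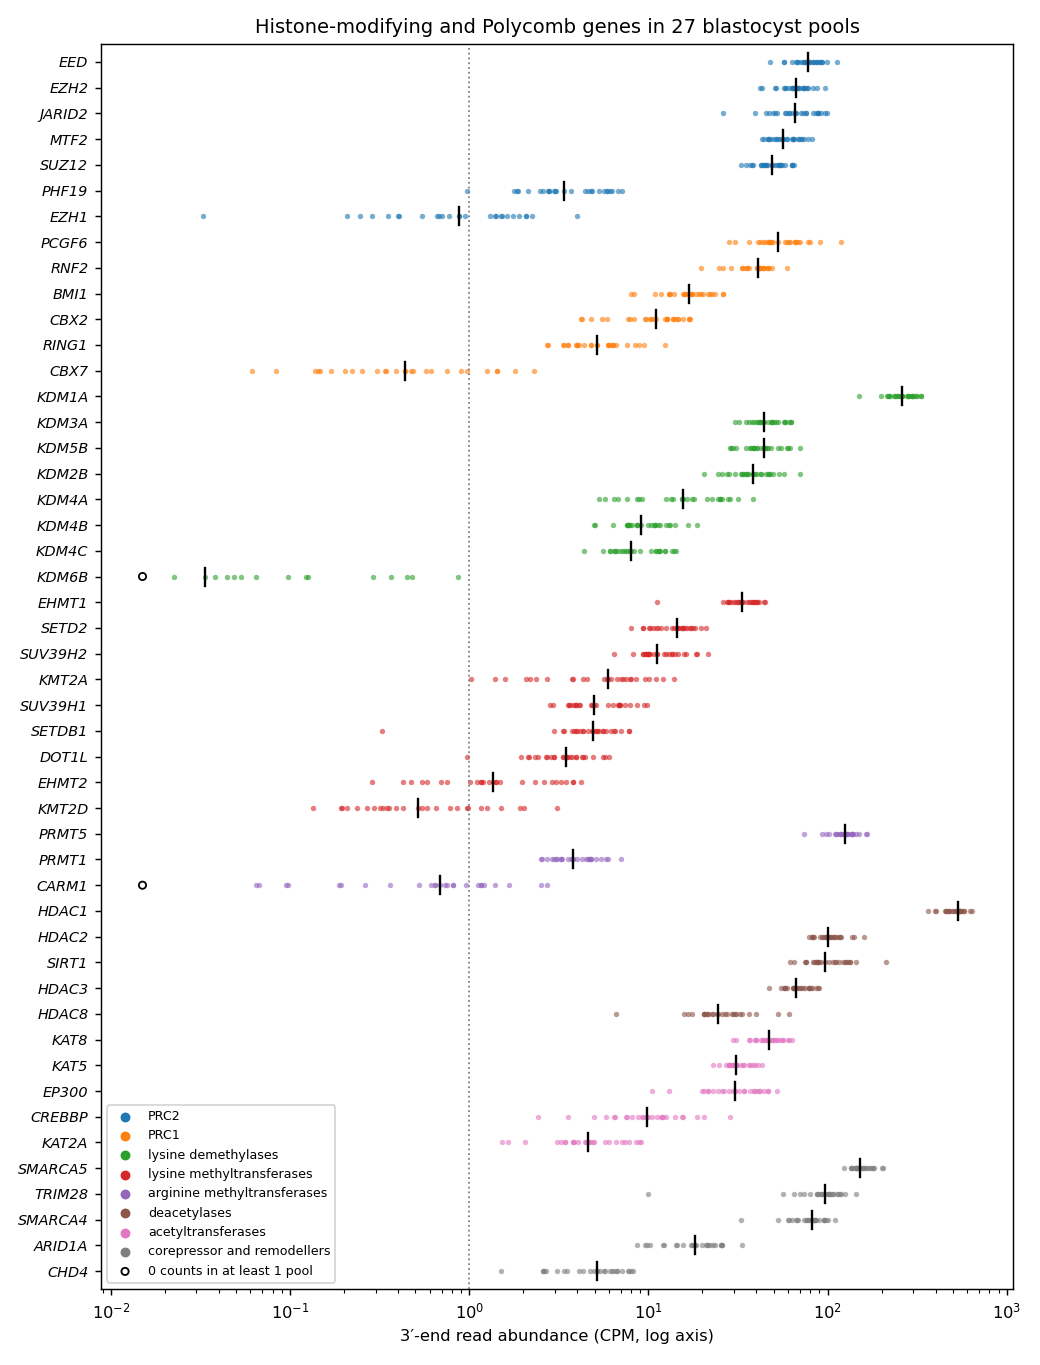
Abundance of each of the 48 genes in the 27 blastocyst pools, as CPM of 3′-end reads on a log axis. Each point is a pool, colours give the role of the gene, black bars are medians, the dotted line is at 1 CPM, and an open circle marks a gene with no counts in at least 1 pool. HDAC1 has the highest median, 531 CPM, and KDM6B the lowest, 0.0336 CPM, and single pools stand far to the left for TRIM28, SETDB1 and HDAC8.

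The core of PRC2 was present in every pool. EZH2, the methyltransferase subunit (chromosome 4 of ARS-UCD2.0, from 112024328 to 112081434), ranged from 41.8 to 96.1 CPM (median 66.5 CPM). EED, which binds the methylated tail and stimulates the enzyme, ranged from 47.9 to 113 CPM (median 78.1 CPM). SUZ12, the scaffold of the complex, ranged from 32.9 to 65.1 CPM (median 48.9 CPM). For EED, the widest of these, the highest pool was 2.36 times the lowest. The coefficient of variation (CV, the SD among pools as a percent of the mean) was 18.4% for EZH2, 18.0% for EED and 18.6% for SUZ12, against a median CV of 32.5% over all retained genes. Among the 200 genes nearest in mean CPM, however, these CVs were at percentiles 38.0, 34.0 and 25.5, so the core was not exceptionally steady for its abundance. The accessory subunits MTF2 and JARID2 were also in every pool. MTF2, which helps bring PRC2 to CpG islands, was between 43.2 and 81.4 CPM, and JARID2, which guides PRC2 to its targets, ranged from 26.0 to 98.8 CPM (median 66.1 CPM). JARID2 was the more variable, with a CV of 27.5%, and its lowest value was in pool 9. PHF19, a further accessory subunit, was lower, between 0.975 and 7.10 CPM.

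EZH1, the paralog of EZH2 that is typical of non-dividing cells, was near the limit of detection. Its abundance was between 0.0326 CPM, which was 1 count, in pool 31 and 4.01 CPM, which was 90 counts, in pool 1, with a median of 0.871 CPM. It reached 1 CPM in exactly 12 pools and so only just met the filter. Of the reads on EZH1 and EZH2 together, EZH2 took a median of 98.7%, and the lowest share was in pool 1, with 1721 of 1811 reads (95% Wilson interval 93.9% to 95.9%). Reads were not counted as molecules, so all intervals here cover counting error alone.

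In PRC1 the pools differed in the balance of the ubiquitin ligases. RNF2, the main ubiquitin ligase of the complex, ranged from 19.7 to 59.6 CPM (median 40.9 CPM), and RING1, its paralog, ranged from 2.73 to 12.3 CPM (median 5.16 CPM). BMI1, a partner of the ligase in canonical PRC1, was between 7.95 and 26.1 CPM, and PCGF6, its counterpart in a variant PRC1, was between 28.0 and 119 CPM. In pool 31, RNF2 and BMI1 were at their lowest of all pools and RING1 was at its highest. As a result RNF2 took 61.5% of the reads on RNF2 and RING1 in pool 31 (95% Wilson interval 58.4% to 64.5%), against a median of 88.4% and 94.4% in pool 21 (93.2% to 95.4%). The chromodomain readers differed in how readily they were seen. CBX2 was between 4.20 and 17.2 CPM, whereas CBX7 reached 1 CPM in 5 pools and had a median of 0.435 CPM.

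Among lysine demethylases, KDM1A (also called LSD1), which removes methyl groups from histone H3 lysine 4 within the CoREST complex, ranged from 150 to 334 CPM (median 259 CPM) and a CV of 16.6%. KDM3A, which acts on lysine 9, KDM5B, which acts on lysine 4, and KDM2B, which brings a variant PRC1 to CpG islands, had medians of 44.2, 44.1 and 38.1 CPM. The KDM4 genes, whose enzymes act on lysine 9 and lysine 36, had medians of 15.5 CPM for KDM4A, 9.06 CPM for KDM4B and 7.96 CPM for KDM4C. KDM4A varied 7.27-fold, from 5.30 CPM in pool 9 to 38.5 CPM in pool 35, and its CV of 51.5% was in the highest 10% of the 200 retained genes nearest to it in mean CPM. KDM6B, which removes the mark that PRC2 places, was not counted in 12 pools and stayed at or below 0.864 CPM in the others.

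The lysine methyltransferases of the set outside PRC2 had medians between 0.518 CPM for KMT2D and 33.3 CPM for EHMT1. EHMT1, which methylates histone H3 lysine 9 together with EHMT2, ranged from 11.2 to 44.6 CPM (median 33.3 CPM). EHMT2 ranged from 0.288 CPM, which was 4 counts, in pool 45 to 4.21 CPM (median 1.35 CPM). Of the reads on both, EHMT1 took a median of 96.0%. SUV39H2 and SUV39H1, which place the trimethyl mark of constitutive heterochromatin, had medians of 11.2 and 4.94 CPM. The share of SUV39H2 in the reads on this pair was between 48.1% in pool 13 (95% Wilson interval 43.2% to 53.0%) and 86.7% in pool 1 (83.4% to 89.5%), with a median of 67.6%. SETDB1 (chromosome 3, from 19801935 to 19834303), which silences retroviral repeats with TRIM28, had a median of 4.89 CPM and was between 2.96 and 7.80 CPM in 26 pools. In pool 31 it was at 0.326 CPM, which was 10 counts in 30679078. SETD2, the lysine 36 methyltransferase, had a median of 14.5 CPM, KMT2A, a lysine 4 methyltransferase, 5.95 CPM, and DOT1L, which methylates the core of histone H3, 3.47 CPM. KMT2A ranged 13.6-fold, from 1.02 CPM in pool 15 to 13.8 CPM in pool 33, and KMT2D, its relative at enhancers, reached 1 CPM in 6 pools.

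Of the arginine methyltransferases, PRMT5, which makes symmetric dimethylarginine and is needed for pluripotent cells, ranged from 73.7 to 165 CPM (median 126 CPM). PRMT1, which makes the asymmetric form, was between 2.51 and 6.98 CPM. CARM1, which methylates histone H3 and favors the inner cell mass in mouse embryos, reached 1 CPM in 8 pools, had no counts in pool 14 and had a median of 0.688 CPM.

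Deacetylases had the highest sum of any role, with a median of 824 CPM and a range of 606 to 966 CPM. HDAC1, a catalytic subunit of the NuRD, Sin3 and CoREST complexes, was between 364 and 636 CPM, and its CV of 12.6% was at percentile 28.0 among the 200 genes nearest in mean CPM. HDAC2, its paralog, was between 79.1 and 159 CPM, and HDAC1 took a median of 83.5% of the reads on the pair. HDAC3, the enzyme of the NCoR and SMRT corepressors, was between 47.2 and 89.0 CPM. SIRT1, a deacetylase that uses NAD, had a median of 96.5 CPM and a maximum of 212 CPM in pool 1, where the next pool had 145 CPM. HDAC8, which is X-linked (chromosome X, from 78105526 to 78344199), varied most among the deacetylases, from 6.62 CPM in pool 31 to 60.9 CPM in pool 13 with a median of 24.4 CPM.

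Acetyltransferases and remodellers completed the set. KAT8, which acetylates histone H4, had a median of 47.0 CPM, KAT5, the enzyme of the TIP60 complex, 30.9 CPM, and KAT2A, the enzyme of the SAGA complex, 4.60 CPM. KAT5 was among the steadiest genes for its abundance, with a CV of 14.8% that was in the lowest 10% of the 200 genes nearest in mean CPM. The coactivators EP300 and CREBBP had medians of 30.4 and 9.87 CPM, and CREBBP ranged from 2.42 CPM in pool 6 to 28.5 CPM in pool 31. SMARCA5, the motor of ISWI complexes, was between 123 and 204 CPM, with a CV of 12.7%. SMARCA4, the motor of BAF complexes, had a median of 82.3 CPM, ARID1A, a DNA-binding subunit of BAF, 18.3 CPM, and CHD4, the motor of NuRD, 5.18 CPM. TRIM28, the corepressor that zinc finger proteins recruit (chromosome 18, from 65769086 to 65775448), had a median of 97.1 CPM. It was at 9.98 CPM, or 145 counts, in pool 9 and between 56.6 and 144 CPM in the other 26 pools.

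The 44 retained genes had a median CV of 28.1%, beside 29.7% for 88 retained genes of a wider chromatin list and 32.5% for all retained genes. Set against the 200 genes nearest in mean CPM, 29 of the 44 had a CV below the middle, 4 were in the lowest 10% and 5 in the highest 10%. By edgeR's estimate the biological coefficient of variation had a median of 0.288 for the 44 genes and 0.337 for all retained genes. As a ratio to edgeR's trend with abundance, the medians were closer, 0.774 and 0.85. Values below the trend were found for 35 of the 44 genes and 8806 of the 12310.

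**Figure D2:**
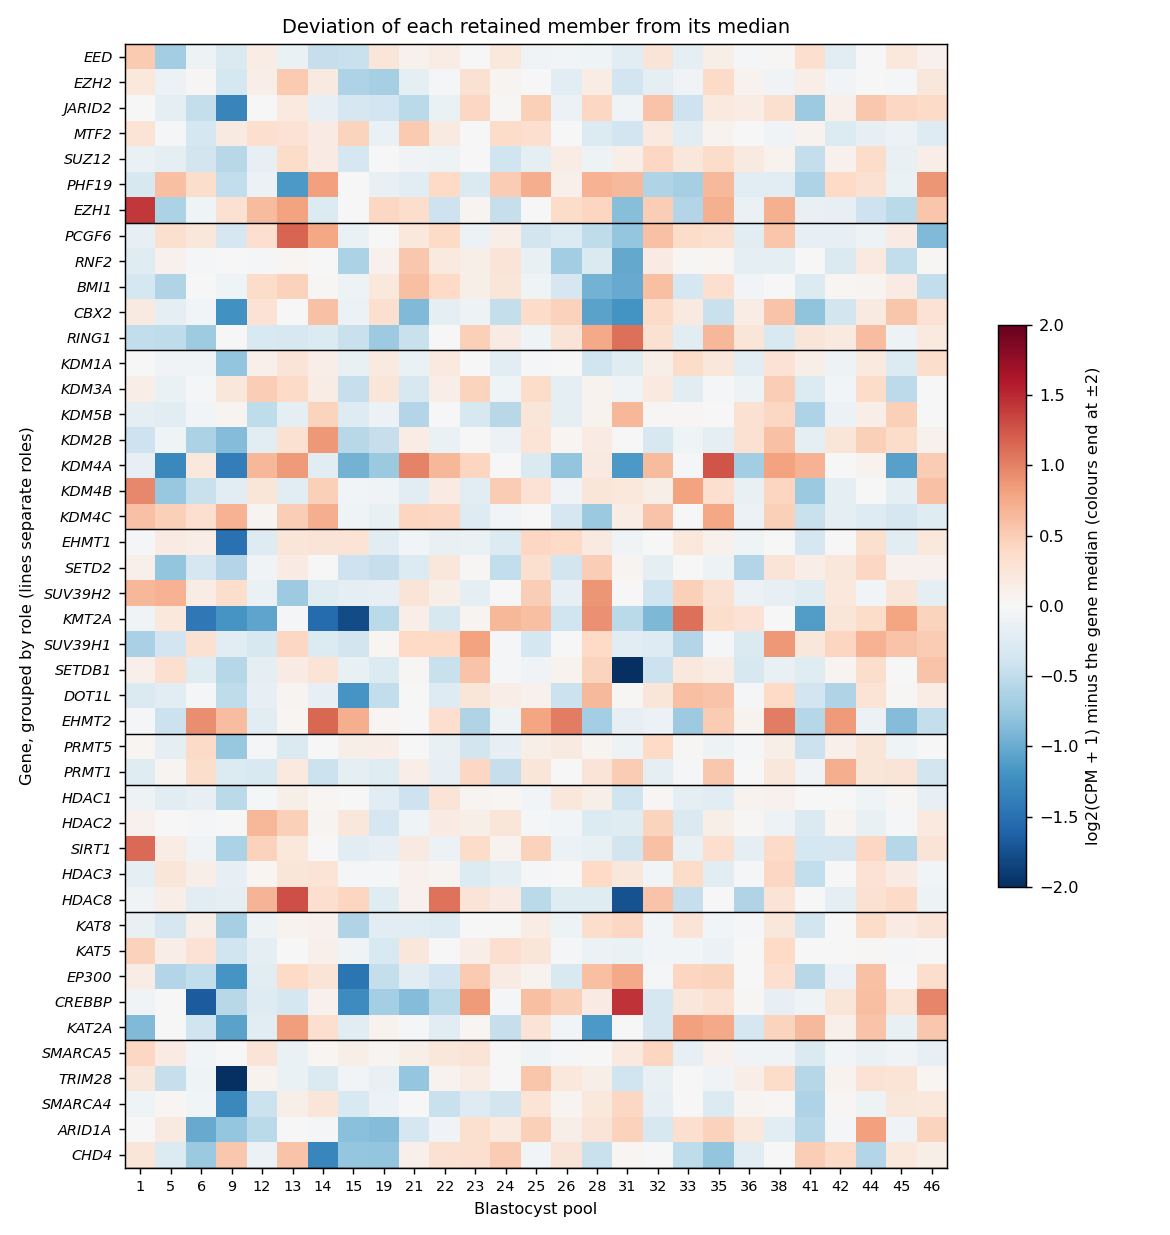
Deviation of the 44 retained genes from their own medians in each blastocyst pool, on the log2(CPM + 1) scale, with genes grouped by role and blue for lower and red for higher. Pool 9 is blue for most of the well expressed genes and darkest for TRIM28, and pool 31 is darkest for SETDB1 and HDAC8 while CREBBP and RING1 are red.

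Pool 9 stood apart from the other pools in these genes. It held the lowest CPM of 14 of the 44 retained genes, or 31.8%, and the highest of none, whereas 11.6% of all retained genes had their lowest and 7.37% their highest value there. The 14 genes were SUZ12, JARID2, CBX2, KDM1A, KDM2B, KDM4A, EHMT1, PRMT5, HDAC1, SIRT1, KAT5, KAT8, TRIM28 and SMARCA4, which come from every role listed above. Each of them had a median of at least 10 CPM, and among the retained genes with such a median 46.7% of members and 13.8% of all genes were lowest in pool 9. The median deviation of the 44 genes from their medians was -0.44 on the log2(CPM + 1) scale in pool 9, beside -0.05 for all retained genes. With library sizes scaled by TMM, which allows for differences in library composition, the number lowest in pool 9 was again 14 and the number highest was 2. Of the wider chromatin list, 19 of 88 genes (21.6%) were lowest there. Pool 9 also had the highest interferon tau abundance, 597 CPM against a median of 41.9 CPM. Its epiblast marker score and hypoblast marker sum were the lowest. The trophectoderm marker score of pool 9 was low as well, at -0.962, with only pools 12 (-0.987) and 32 (-1.24) lower. The part of these measures in the low values was not tested. The total count of pool 9, 14526367, was within the range of the other pools. This was a description of 1 pool, with no replicate and no test.

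Pool 31 was extreme in both directions. It held the lowest CPM of 6 members, EZH1, MTF2, RNF2, BMI1, SETDB1 and HDAC8, and the highest of 6, RING1, KDM5B, KAT8, EP300, CREBBP and SMARCA4. Each count was 13.6% of the 44 genes, and of all retained genes 17.9% were lowest and 9.20% highest in this pool, so that pool 31 was extreme across the transcriptome and not in these genes alone. With TMM scaling it held the lowest value of 4 members and the highest of 6. The total count of pool 31 was 30679078, among the higher totals. Its epiblast marker sum, 371 CPM, and its cell cycle gene sum, 1820 CPM, were the lowest of the 27 pools, and its trophectoderm marker sum, 41100 CPM, most of it KRT8 and KRT18, was the highest. By the mean scores, which weight markers equally, the extremes were in other pools, with the lowest epiblast score in pool 9, the lowest cell cycle score in pool 33 (-1.25, against -0.925 in pool 31) and the highest trophectoderm score in pool 14 (1.31, against 0.695). The part of these in the values above was not tested.

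**Figure D3:**
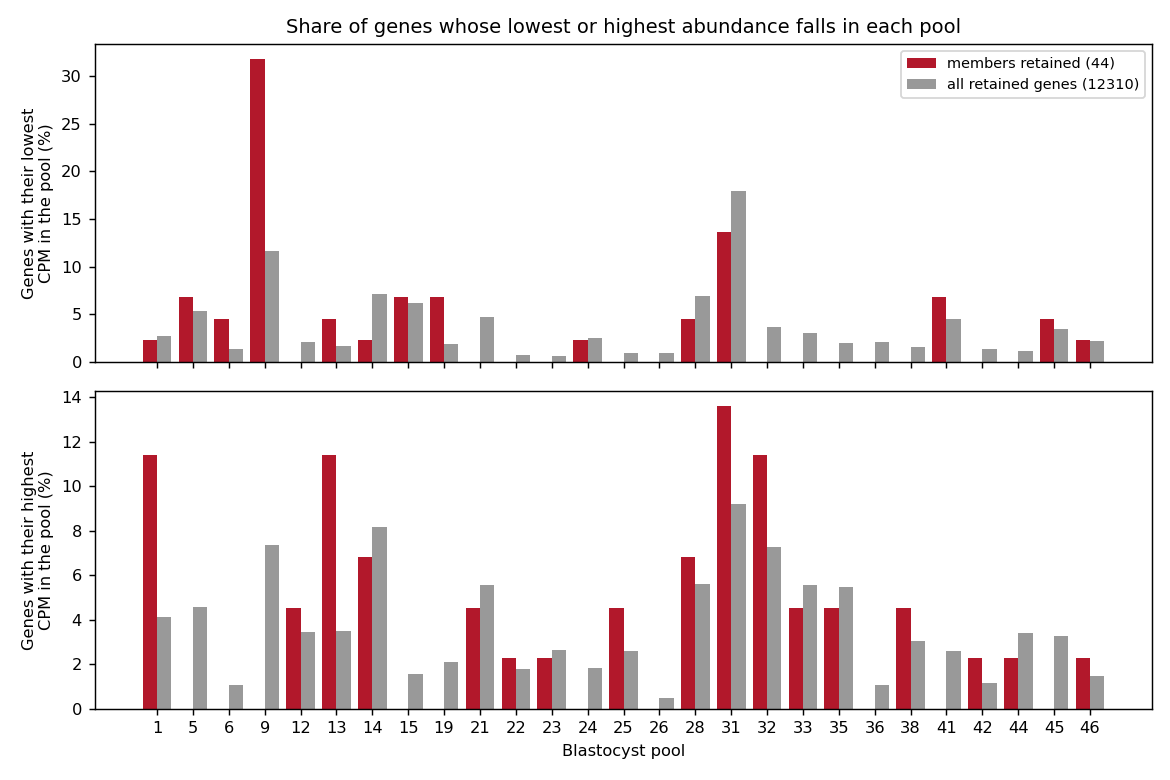
Percent of the 44 retained members and of all retained genes whose lowest (top) or highest (bottom) CPM fell in each of the 27 blastocyst pools. Pool 9 holds the lowest value of 31.8% of members against 11.6% of all genes, and in pool 31 the member bar is below that of all genes for lowest values.

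With no treatment comparison, the members were set against 6 measures of the pools that relate to embryo composition, stage or depth. These were the mean score of 7 epiblast markers, of 10 trophectoderm markers and of 15 cell cycle genes, the summed interferon tau abundance, which trophectoderm secretes, the abundance of XIST, the RNA of the inactive X chromosome, and the total count. Each measure was scaled to an SD of 1, and edgeR's quasi-likelihood test was run across all retained genes with Benjamini-Hochberg adjustment within each measure. Slopes are log2 changes in abundance per SD of the measure. The measures overlapped, so slopes of a gene on different measures are not separate results. The Spearman rho largest in size were 0.473 between interferon tau and XIST and -0.433 between trophectoderm markers and cell cycle genes. The pools could not be split by fertilization replicate, so no relation was recomputed within batches, and the part of replicate and treatment in these relations was not tested. Few members passed the threshold of 0.05, and their share was near or below that of all genes on every measure.

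On trophectoderm markers, 2 of 44 members were higher, beside a background of 2.88% of genes higher, 2.28% lower and 5.15% in all, and no member was lower. With DESeq2, without pool 9 and without pools 14 and 32, 1 member was lower, beside 492, 223 and 324 of the 12300 genes tested. SMARCA4, with 33.0 CPM in pool 9 and 110 CPM in pool 31, rose by 0.217 ± 0.0536 (SE) per SD (edgeR adjusted p = 0.0186, n = 27). KDM2B, which ranged from 20.5 to 70.1 CPM, rose by 0.206 ± 0.0622 (edgeR adjusted p = 0.0481), and its highest value was in pool 14, which had the highest trophectoderm score. Without pool 9 the adjusted p was 0.0432 for SMARCA4 and 0.107 for KDM2B, and without pool 31 it was 0.046 and 0.0629. KDM2B also missed the threshold without pools 14 and 32, the farthest from the median score, where its slope was 0.122 (adjusted p = 0.277). The median slope of the members was 0.07 and that of all genes was 0.00. An unadjusted p of 0.05 or less was reached by 15 members (34.1%), against 22.4% of all genes and 19.3% of the wider chromatin list. Without pool 9 the share of members was 31.8%, against 20.4% of all genes, and without pool 31 it was 25.0% against 19.7%. Of the wider chromatin list 5 of 88 genes were higher and none was lower, led by RCOR1, the CoREST scaffold, with 0.45 ± 0.07 (adjusted p = 0.00134), followed by WDR5, a core subunit of lysine 4 methyltransferases, with 0.178 ± 0.0438 (adjusted p = 0.0184), and CHD8, a remodeller, with 0.303 ± 0.0815 (adjusted p = 0.0276).

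On cell cycle genes, 1 member was higher, beside a background of 0.976% of genes higher, 1.69% lower and 2.67% in all. HDAC8, whose protein deacetylates cohesin during chromosome segregation, rose by 0.36 ± 0.0832 per SD (edgeR adjusted p = 0.0174, n = 27). The pools with the highest HDAC8, pool 13 with 60.9 CPM and pool 22 with 52.6 CPM, had cell cycle scores of 0.648 and 0.832, and pool 31, with 6.62 CPM, had a score of -0.925. Without pool 31 the slope was 0.293 and the adjusted p was 0.0615, so the gene then missed the threshold. HDAC2 had a slope of 0.14 ± 0.0405 (adjusted p = 0.0543), and EZH2, which is often high in dividing cells, was not among the 12 members (27.3%, against 16.8% of all genes) with an unadjusted p of 0.05 or less. With the total count as a covariate this share was 20.5%, against 17.2% of all genes. Without pool 31 it was 20.5% against 12.2%, and without pool 9 it was 27.3% against 17.5%. None of the 88 genes of the wider list passed, and 12 (13.6%) reached an unadjusted p of 0.05.

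On interferon tau, 1 member was lower, beside a background of 0.731% of genes lower, 1.56% higher and 2.29% in all. An unadjusted p of 0.05 or less was reached by 4 members (9.09%), against 16.3% of all genes. JARID2 (chromosome 23, from 41484698 to 41715733) fell by 0.248 ± 0.0659 per SD (edgeR adjusted p = 0.0402, n = 27). Its lowest value, 26.0 CPM, was in pool 9, where interferon tau was highest at 597 CPM, while in pool 32, with 13.5 CPM of interferon tau, it was highest at 98.8 CPM. Without pool 9 the slope was -0.163 and the adjusted p was 0.222, and with the total count as a covariate the adjusted p was 0.0639. The slope was positive for 10 of the 44 members, beside 5978 of the 12308 genes tested. The median slope was -0.06 for the members and -0.01 over all genes. Without pool 9 the slope was positive for 13 members and for 6015 of all genes, and the members' median was -0.04. Members were measured in the same pools, so their slopes are not separate results. In the wider list, SETD7 and RBBP7 were higher and L3MBTL2, a variant PRC1 subunit, was lower, with slopes of 0.285 ± 0.0671 (adjusted p = 0.0195), 0.225 ± 0.059 (adjusted p = 0.0386) and -0.297 ± 0.0737 (adjusted p = 0.0278), and without pool 9 none of the 88 genes passed.

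On epiblast markers no member passed, beside a background of 0.0% of genes higher and 0.00813% lower. An unadjusted p of 0.05 was reached by 9 of 44 members, or 20.5%, against 11.0% of all genes. Without pool 9 it was reached by 6 members, or 13.6%, against 11.7% of all genes. Without pool 31 the shares were 18.2% and 10.4%. CBX2 had the smallest p of the members, with a slope of 0.388 ± 0.0951 (edgeR adjusted p = 0.11). With DESeq2 it passed (adjusted p = 0.0181), with 0.699% of all genes called. On the total count no gene passed, a background of 0.0% in either direction, and 0 of 44 members reached an unadjusted p of 0.05 against 2.76% of all genes. DESeq2 gave no call on the total count either.

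**Figure D4:**
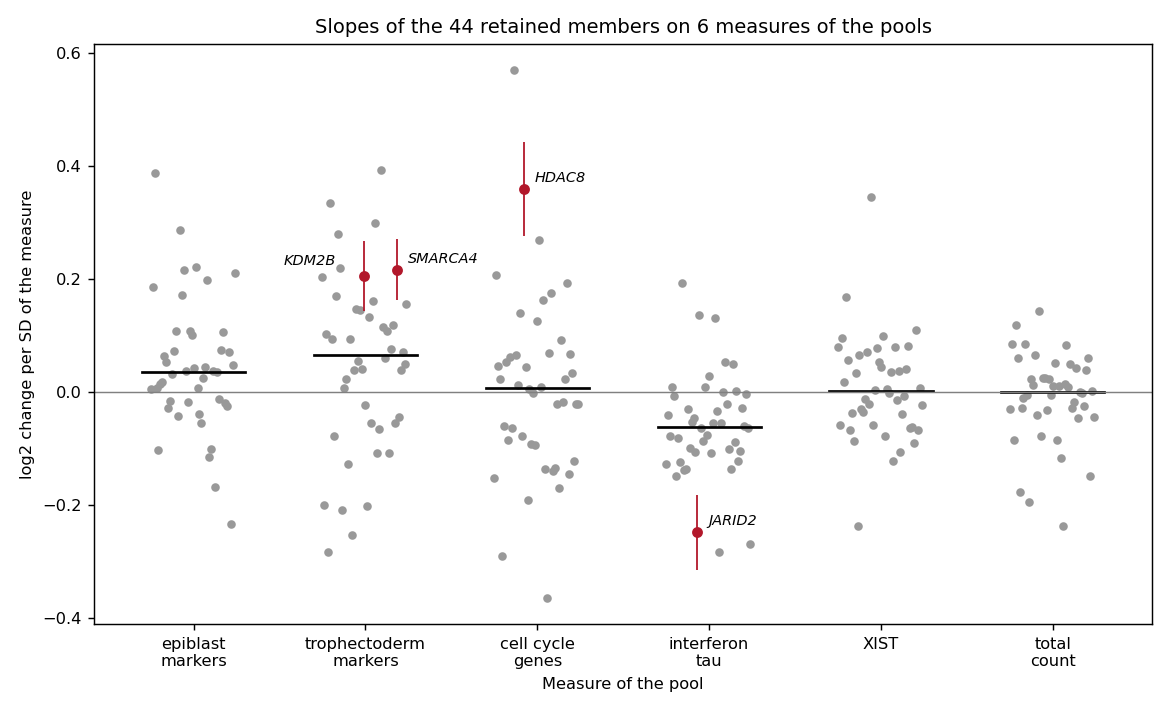
Slopes of the 44 retained members on 6 measures of the pools, as log2 change in abundance per SD of the measure. Grey points are members that did not pass, red points with SE bars passed an edgeR adjusted p of 0.05, and black lines are medians of the members. Red points are seen for trophectoderm markers (SMARCA4 and KDM2B), cell cycle genes (HDAC8) and interferon tau (JARID2) only.

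XIST is transcribed from the inactive X chromosome of female cells, and SUV39H1 (chromosome X, from 86777328 to 86790238) and HDAC8 are the X-linked genes of the set. XIST was between 0.0484 and 35.4 CPM. By edgeR no member passed on XIST, beside a background of 2.56% of genes higher, 1.99% lower and 4.55% in all, and at an unadjusted p of 0.05 there were 4 of 44 members, or 9.09%, against 18.9% of all genes. SUV39H1 had a slope of 0.11 ± 0.105 (adjusted p = 0.639) and HDAC8 of 0.072 ± 0.102 (adjusted p = 0.778). KAT2A came closest, with 0.346 ± 0.11 (adjusted p = 0.0648), and passed without pool 9 (adjusted p = 0.034) and with DESeq2 (adjusted p = 0.0338). In the wider list, 2 genes were higher and 4 lower. Those higher were the X-linked RBBP7, a histone-binding subunit of PRC2 and NuRD, with 0.297 ± 0.0432 (adjusted p = 0.000123), and the X-linked KDM6A, which removes the PRC2 mark, with 0.305 ± 0.0891 (adjusted p = 0.0426). The 3 lower genes with the smallest p were RBBP4, the autosomal paralog of RBBP7, with -0.153 ± 0.0404 (adjusted p = 0.0239), CBX3, with -0.143 ± 0.0403 (adjusted p = 0.0346), and AEBP2, with -0.22 ± 0.0633 (adjusted p = 0.0389). Y-linked transcripts were abundant in some pools and near 0 in others. Within the 18 pools that had at least 10 CPM of them, no member and no gene of the wider list passed, and of all genes 0 were called and 8.24% reached an unadjusted p of 0.05.

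The abundance of known partners was compared across pools for 12 pairs by permutation test, with adjustment over the pairs. EP300 and CREBBP, paralogous acetyltransferases, were related with r = 0.69 (Pearson, n = 27, permutation p = 6e-05, adjusted p = 0.00072) and a Spearman rho of 0.667 (p = 0.00024, adjusted p = 0.00288). Without pools 9 and 15, the farthest from the median of EP300, r was 0.632 (permutation p = 0.00045). RNF2 and BMI1, subunits of canonical PRC1, had an r of 0.594 (permutation p = 0.0013, adjusted p = 0.0078) and a rho of 0.568 (p = 0.00244, adjusted p = 0.0146). Without pools 26 and 31 r was 0.421 (permutation p = 0.0363), and without pool 31 alone it was 0.451 (adjusted p = 0.0856). With TMM scaling r was 0.513 (adjusted p = 0.0381) and rho was 0.365 (adjusted p = 0.246). SMARCA4 and ARID1A, subunits of BAF, had an r of 0.486 (permutation p = 0.00915, adjusted p = 0.0366) and a rho of 0.455 (p = 0.0182, adjusted p = 0.0728), and r was 0.334 without pools 9 and 41 (permutation p = 0.104). Its adjusted p was also above 0.05 without pool 31 (0.0856) and with TMM scaling (0.0568).

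The 9 other pairs did not pass by either correlation. Among the PRC2 core, r was 0.23 for EZH2 with EED (permutation p = 0.245, adjusted p = 0.327), 0.275 for EZH2 with SUZ12 (permutation p = 0.164, adjusted p = 0.285) and 0.0277 for EED with SUZ12 (permutation p = 0.892, adjusted p = 0.892). The matching rho values were 0.208, 0.154 and -0.0159, with permutation p values of 0.293, 0.441 and 0.939. These genes had CVs of 18.6% or less. TRIM28 and SETDB1, which work as partners, had an r of 0.278 (permutation p = 0.08, adjusted p = 0.24) and a rho of 0.267 (p = 0.18), and their lowest values were in different pools, 9 and 31. The remaining 5 pairs, EZH1 with EZH2, SUV39H1 with SUV39H2, EHMT1 with EHMT2, HDAC1 with HDAC2 and HDAC1 with CHD4, had r between -0.26 and 0.278 and rho between -0.278 and 0.313, with permutation p adjusted to 0.285 or more for r and to 0.271 for rho. Without pool 9, r was 0.403 for EHMT1 with EHMT2 (permutation p = 0.0429, adjusted p = 0.131) and 0.279 for HDAC1 with CHD4 (permutation p = 0.169, adjusted p = 0.29).

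**Figure D5:**
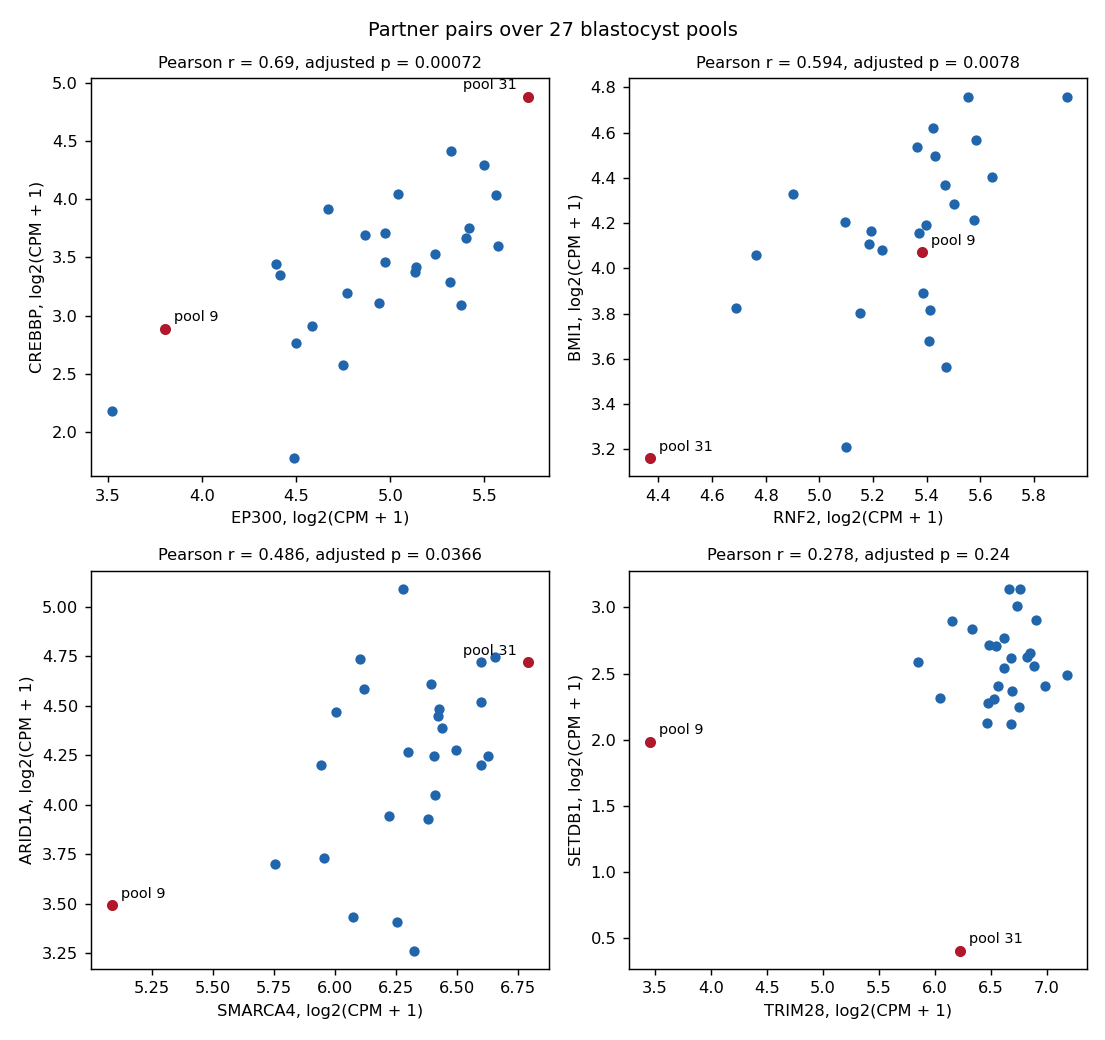
Abundance of 4 partner pairs in the 27 blastocyst pools, on the log2(CPM + 1) scale, with pools 9 and 31 in red and the Pearson r with its adjusted permutation p above each panel. EP300 rises with CREBBP across the whole range, pool 31 sits at the low end for RNF2 with BMI1, pool 9 sits at the low end of SMARCA4 with ARID1A, and TRIM28 and SETDB1 each have a single low pool.

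Over all 946 pairs of the 44 retained genes, the Spearman rho had a median of 0.123, with quartiles of -0.0665 and 0.3, and 640 pairs were positive. The pairs share the same 27 libraries and their totals, and no matching value is given here for pairs of other genes. As a description with no test, the highest values were 0.858 for CREBBP with ARID1A, 0.801 for DOT1L with EP300 and 0.8 for KAT8 with EP300, named after their values were seen. These were not among the 12 partner pairs, and each was above the 0.667 of EP300 with CREBBP. The rho of RNF2 with BMI1 was 0.568 and that of SMARCA4 with ARID1A was 0.455, beside the upper quartile of 0.3. Whether partners were more closely related than other members was not tested. Over all 946 pairs the median rho was 0.109 without pool 9.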

How the data were processed

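RNA-sequencing libraries of 27 pools of 2 blastocysts were analysed. The authors used fastp for trimming, STAR for alignment (genome ARS-UCD2.0) and featureCounts for the reads of each gene, and deposited raw counts of 32637 genes without normalization. Tool versions and the annotation release are not given in the sources used here. All 27 columns were matched to pools by label, and no 2 columns agreed within counting error (chi-square per degree of freedom at least 23.9 over 351 pairs).

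CPM used the total count of the pool, from 10517606 to 44253564, and a gene was retained where 12 or more pools had at least 1 CPM. Gene positions came from RefSeq for ARS-UCD2.0, where 48 of 48 symbols matched. The quasi-likelihood test of edgeR 4.0.16 with TMM (R 4.3.3) was fitted across all retained genes for each of 6 continuous measures, with DESeq2 1.42.0 as an alternative. The SE of a slope was the slope divided by the square root of its F. Marker scores were mean z scores of log2(CPM + 1), and genes that make up a measure were left out of its counts. Correlations used log2(CPM + 1) and 100000 two-sided permutations. Python 3.11.15 with numpy 2.4.6 and scipy 1.17.1 was used, and the calculations were tested on simulated data.

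Every member was named. For a measure, the named genes were the members past an adjusted p of 0.05, at most 8 in each direction, and at most 3 in each direction from the wider chromatin list, with X-linked members named for XIST. CBX2, HDAC2, EZH2 and KAT2A were named on a measure after their values were seen. The members, lists and measures were chosen with earlier results of these data known. Pools are separate embryos, with treatments and replicates mixed, and p-values measure the spread among them. No sequences were analysed here.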

Additional observations from a re-analysis of the deposited data

How the results depend on the processing

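The number of retained members was between 39 and 48 under the alternatives run, and their median CV was between 27.4% and 28.1%. Shares of the members called are given in brackets, against those of all genes tested. On epiblast markers 0 members passed, and 1 did with all counted genes (2.08% against 2.11%) and with DESeq2 (2.27% against 0.699%). On trophectoderm markers 2 passed (4.55% against 5.15%). With RLE size factors, with total count as a covariate and without pool 31, 1 passed (2.27% against 5.24%, 4.94% and 3.06%). With DESeq2 and without the 2 farthest pools 4 did (9.09% against 8.42% and 7.11%). Without pool 9 there were again 2 (4.55% against 4.24%), 1 higher and 1 lower. On cell cycle genes 1 passed (2.27% against 2.67%). With all counted genes and without pool 9, 2 did (4.17% against 4.23%, and 4.55% against 3.12%). With DESeq2 3 did (6.82% against 4.55%), and without pool 31 0 did (0.0% against 0.455%). On interferon tau 1 passed (2.27% against 2.29%), and 2 did with DESeq2 (4.55% against 4.19%). Without pool 9, without the 2 farthest pools and with total count as a covariate 0 did (against 0.333%, 0.772% and 1.84%). On XIST 0 passed (against 4.55%). With DESeq2, without the 2 farthest pools and without pool 9, 1 did (2.27% against 6.67%, 2.91% and 5.0%). The slope of HDAC8 on XIST was -0.026 within the 18 pools with Y-linked transcripts. Of the partner pairs 3 passed, and 2 did by rho, with TMM and without pool 9, and 1 without pool 31. The r of EED with SUZ12 turned from 0.0277 to -0.0159 as rho, -0.122 with TMM and -0.0619 without pool 9. The adjusted p of SMARCA4 with ARID1A was between 0.0366 and 0.131 over the alternatives. The cause of these changes was not tested. With all counted genes in place of the retained genes 519 genes were called on epiblast markers and 561 on total count, against 1 and 0. Leaving out pools 9 and 31 and the use of rho were chosen after seeing the data. Abundance per kb of transcript was not run, because transcript lengths were not used here. No paired analysis was possible because the labels give no treatment or replicate for a pool. The lowest values of CBX7, KDM6B, KMT2D, CARM1, EZH1 and EHMT2 were 0 to 4 counts, so these genes were near the limit of detection in some pools. The part of depth in this was not tested.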
